A study of Rattus norvegicus with 6 samples.

Results

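The genes examined here are those of the rat major histocompatibility complex (MHC, named RT1 in the rat) and the genes that load and display their peptides, in dorsal root ganglia after nerve injury. They were chosen by symbol, as every gene starting with RT1- in the authors' table of group averages plus Cd74, Ciita, Ifi30, B2m, Tap1, Tap2, Tapbp, Cd80 and Cd86. This gave 43 of the 18696 genes in that table: 10 class II genes (RT1-B, RT1-D, RT1-DM, RT1-DO and RT1-Ha), 24 class I genes (all other RT1 genes) and 9 accessory genes. RNA was sequenced from ganglia of SD rats in 3 libraries after spared nerve injury (SNI) and 3 libraries after sham surgery. In SNI, surgeons ligated and transected 2 branches of the sciatic nerve, the tibial and the common peroneal, and left the sural branch whole. In sham surgery they opened the skin, exposed the nerve and closed the wound. Age, sex, time after surgery, spinal level and side are not given in the labels. Whether each library came from its own animal is not given either, so the p-values below reflect variation among these libraries, possibly technical variation alone.

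MHC molecules carry peptides to the cell surface, where T cells inspect them. Class I molecules, a heavy chain paired with B2m, are made by nearly all nucleated cells and show peptides from inside the cell, pumped into the endoplasmic reticulum by Tap1 and Tap2 and loaded with the help of Tapbp. Class II molecules, pairs of an alpha and a beta chain, are made mostly by macrophages, dendritic cells and B cells under the control of Ciita, and show peptides from swallowed material. The invariant chain Cd74 guards the class II groove until RT1-DM exchanges its remnant for a peptide. In sensory ganglia class II protein is known mainly from macrophages.

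Class II promoters are known for a conserved module of an X box and a Y box, in which the Y box holds an inverted CCAAT sequence. It is shown here because all class II genes had higher averages after SNI. The promoter table of RefSeq (GRCr8) held 39 of the 43 genes. RT1-DMb, RT1-CE7, RT1-M1-4 and Ciita had no entry. Each stretch is 60 bases long and lies on the gene's own strand, with capitals marking TGATTGG (Y box core) or its reverse complement CCAATCA, and ACNGATG (part of the X box in some genes).
RT1-Bb, chr20:4604172-4604231, minus strand: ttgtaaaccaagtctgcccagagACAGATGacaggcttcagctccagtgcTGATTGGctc
RT1-Ba, chr20:4576962-4577021, plus strand: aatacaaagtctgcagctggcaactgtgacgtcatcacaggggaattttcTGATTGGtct
RT1-Da, chr20:4515314-4515373, plus strand: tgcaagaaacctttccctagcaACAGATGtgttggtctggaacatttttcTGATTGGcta
RT1-Db1, chr20:4560235-4560294, minus strand: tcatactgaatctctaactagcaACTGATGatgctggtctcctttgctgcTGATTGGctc
RT1-DMa, chr20:4712392-4712451, minus strand: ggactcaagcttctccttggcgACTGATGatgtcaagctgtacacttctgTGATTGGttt
RT1-DOb, chr20:4627599-4627658, minus strand: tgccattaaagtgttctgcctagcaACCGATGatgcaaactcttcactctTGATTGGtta
RT1-A2 (class I), chr20:4872765-4872824, plus strand: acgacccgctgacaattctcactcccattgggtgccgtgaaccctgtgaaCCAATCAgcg
RT1-T24-3 (class I), chr20:2722985-2723044, plus strand: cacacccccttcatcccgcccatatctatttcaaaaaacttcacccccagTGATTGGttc

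In the 250 bases before the annotated start, TGATTGG on the gene's strand was present in 9 of 9 class II promoters, 3 of 22 class I promoters and 0 of 9 accessory promoters (1 per row of the table, Cd80 having 2 rows). Among all 33469 promoter rows, 3.26% held it. ACNGATG on the gene's strand was in 6 of 9 class II and 7 of 22 class I promoters, against 4.48% of all promoters. Both stood together on that strand in 6 class II promoters and in 0 class I promoters, against 0.137% of all promoters. In the 6 class II genes 18 to 21 bases lay between them. On either strand, TGATTGG was found in 10 of 22 class I promoters and 6.42% of all promoters, in RT1-A2 in the reversed orientation. The most alike class I promoters, those of RT1-M6-2 and RT1-M6-1, were 96.7% identical over 300 bases. Those of RT1-CE4 and RT1-CE10 were 83.0% identical, and those of RT1-A2 and RT1-CE5 82.3%. The median over 231 pairs of class I promoters was 44.7%, beside 43.3% over 28 pairs of accessory promoters. The letters were settled on after the promoters had been read, and a match is a description and not a site. Lack of these exact letters does not mean lack of an X box or a Y box, and this holds for class I and accessory promoters too. RT1-Ba, RT1-DOa and RT1-Ha, without ACNGATG, had higher averages after SNI as well.

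Class II genes had higher averages after SNI, with larger ratios than most class I genes. All 10 class II genes had a higher average in SNI than in sham, as had 16 of 24 class I genes and all 9 accessory genes, against 53.1% of all genes. The averages are the authors' deposited values in TPM, a unit that corrects for gene length and gives each transcript's share of its library. They have no error. The median log2 ratio of the averages (SNI over sham, with 1 TPM added to each) was 1.06 for class II, 0.27 for class I and 0.63 for the accessory genes, beside 0.02 for all genes. With 0.1 TPM added in place of 1, that of class I was 0.43. A ratio of 1.5 without any addition was reached by 10 class II, 8 class I and 6 accessory genes, against 13.8% of all genes, and a ratio of 2 by 8, 2 and 4 genes, against 7.66% of all genes. These counts include 1 class II gene (RT1-Ha) and 3 class I genes (RT1-M1-4, RT1-M1-5 and RT1-M6-1) that averaged under 10 reads in both groups. Among genes with at least 10 average reads in either group, a ratio of 1.5 was reached by 9 of 9 class II, 5 of 21 class I and 6 of 9 accessory genes, against 10.3% of 15854 genes, and a ratio of 2 by 7, 0 and 4 of them, against 5.24%. The authors' deposited list of higher genes held 7 class II, 0 class I and 3 accessory genes, and covered 3.63% of the genes with averages. Their list of lower genes, 0.695% of the genes with averages, held none of the 43. The gap between the classes was not tested, since the genes were chosen with results of these data known. In bulk tissue, more cells of a type and more RNA per cell cannot be told apart.

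**Figure D1:**
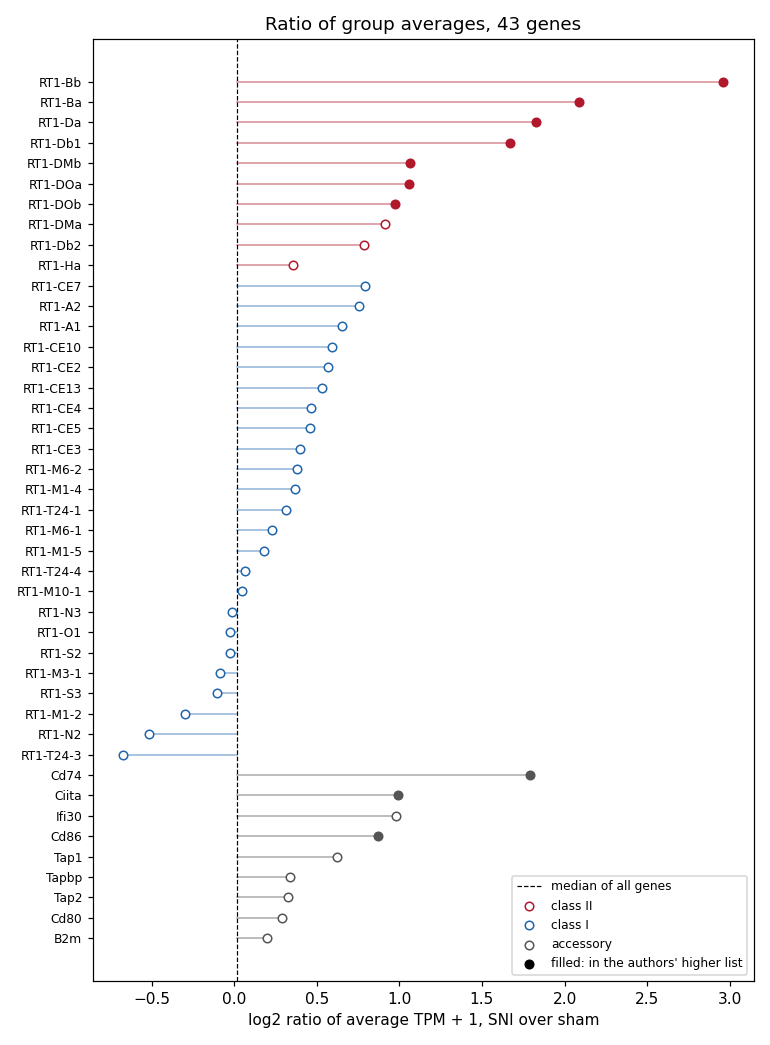
Log2 ratio of the authors' average TPM in SNI over sham, with 1 TPM added to each, for the 43 genes grouped by class. Filled points are in the authors' higher list and the dashed line is the median of all genes (0.02). The class II points lie between 0.35 and 2.96, the class I points between -0.67 and 0.79.

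TPM for each library were deposited for a selection of 1637 genes, and how that selection was made is not stated in the labels or headers. It held 18 of the 43 genes: 3 class II, 10 class I and 5 accessory genes. All 18 passed a filter at a mean of 1 TPM. They were compared with limma on log2(TPM + 1) over the 1596 genes kept, with Benjamini-Hochberg adjustment at 0.05. Of the 18 genes 15 rose, 1 fell and 2 did not pass, in a table where 32.0% of genes rose and 29.2% fell (510 and 466 genes, or 402 and 608 after quantile normalization). SNI libraries lay above all sham libraries in 16 of the 18 genes and below them in 2, against 35.3% and 31.3% of the 1596 genes.

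**Figure D2:**
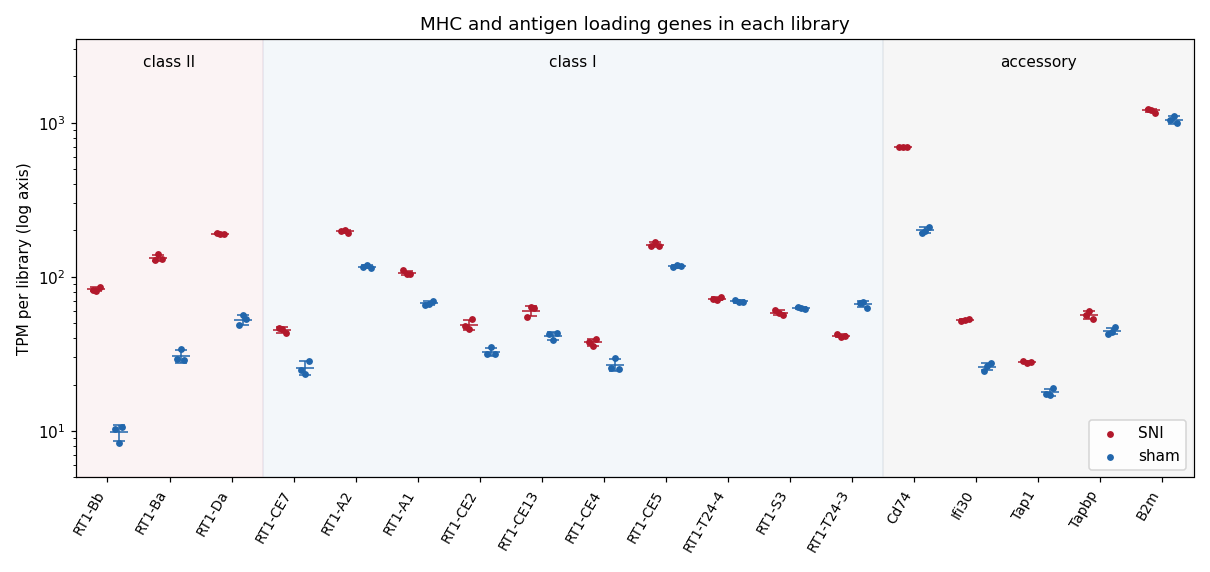
TPM in each library (points, log axis) for the 18 genes measured per library, with the mean and SD of 3 SNI (left of each pair) and 3 sham libraries. The groups do not overlap in any of the 18 genes, with the widest gap for RT1-Bb.

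The 3 class II chains measured per library, all parts of peptide-binding molecules, had the largest log2 fold changes of the 18 genes. RT1-Bb (NCBI Gene ID 309622), the beta chain of the molecule that corresponds to human HLA-DQ, had 82.2, 81.3 and 86.0 TPM in SNI libraries, against 10.3, 8.42 and 10.7 TPM in sham libraries. The highest sham library stayed far under the lowest SNI library. The log2 fold change was 2.97 (SE 0.08, limma adjusted p = 6.6e-09). Its partner RT1-Ba (Gene ID 309621), the alpha chain, had 128.7, 139.8 and 131.1 TPM in SNI and 29.2, 34.0 and 28.7 TPM in sham libraries. Each SNI library was again above each sham library, by 2.09 on the log2 scale (SE 0.07, limma adjusted p = 2.0e-08). RT1-Da (Gene ID 294269), the alpha chain of the molecule that corresponds to human HLA-DR, had 191.8, 190.2 and 188.6 TPM in SNI and 48.9, 56.5 and 53.0 TPM in sham libraries. The SNI libraries lay close together and apart from sham (log2 fold change 1.83, SE 0.06, limma adjusted p = 1.2e-08).

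The remaining class II genes are known here only by the authors' averages. RT1-Db1, a beta chain that pairs with RT1-Da, averaged 94.6 TPM in SNI and 29.0 TPM in sham. RT1-Db2, a second beta chain gene of the same family, averaged 5.87 and 2.98 TPM in SNI and sham, and reads of these similar genes may have been shared. The peptide exchangers RT1-DMa and RT1-DMb stood at 54.2 and 46.1 TPM in SNI and at 28.3 and 21.5 TPM in sham, ratios of 1.91 and 2.14. Ratios were larger for RT1-DOa and RT1-DOb, which restrain RT1-DM and are known from B cells and some dendritic cells. Their levels were low, with RT1-DOa at 3.34 TPM in SNI and 1.08 TPM in sham and RT1-DOb at 2.63 TPM in SNI and 0.85 TPM in sham. RT1-DOb had an average of only 9.67 reads in sham. RT1-Ha, which corresponds to human HLA-DPA1, averaged 3.34 reads in SNI and 0.33 reads in sham, too few for a ratio.

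The chains of a pair did not move by the same factor in every case. RT1-Bb stood at 0.639, 0.582 and 0.656 of the TPM of RT1-Ba in SNI libraries, against 0.354, 0.248 and 0.371 in sham libraries. The groups did not overlap, and the TPM of RT1-Bb relative to that of RT1-Ba was higher after SNI. Whether reads of both chains were counted equally well in every library was not tested. Over the authors' averages the beta to alpha ratio was 0.497 in SNI and 0.550 in sham for RT1-Db1 over RT1-Da. It was 0.851 and 0.759 in SNI and sham for RT1-DMb over RT1-DMa, and 0.788 and 0.787 for RT1-DOb over RT1-DOa. RT1-Ba over RT1-Da was 0.700 ± 0.032 in SNI and 0.580 ± 0.034 in sham libraries (SD, n = 3 each). These ratios are given as a description, with no test.

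**Figure D3:**
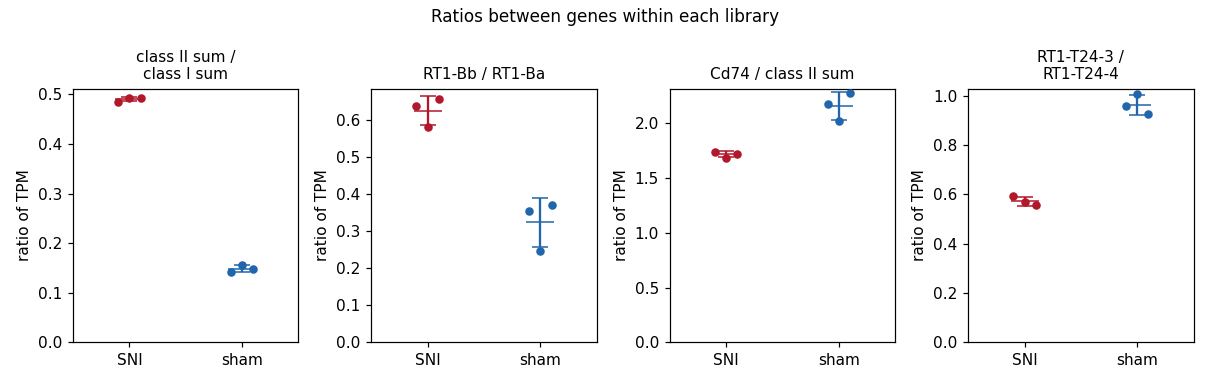
Ratios of TPM between genes within each library (points), with the mean and SD of 3 SNI (left) and 3 sham libraries (right). The class II sum covers RT1-Bb, RT1-Ba and RT1-Da and the class I sum 10 genes. The first 2 ratios are higher in SNI and the last 2 lower, with no overlap.

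Cd74, Ifi30 and Ciita, which serve class II molecules, also had higher averages in SNI. Cd74 (Gene ID 25599), the invariant chain, had 699.6, 691.8 and 696.1 TPM in SNI and 191.9, 199.4 and 209.8 TPM in sham libraries, with log2 fold change 1.79 (SE 0.04, limma adjusted p = 3.3e-09). It was more abundant than any class II chain in both groups. Relative to the sum of RT1-Bb, RT1-Ba and RT1-Da it was lower after SNI, at 1.71 ± 0.0275 times the sum in SNI and 2.15 ± 0.129 times in sham libraries (SD, n = 3 each). Ifi30, the lysosomal reductase that opens disulfide bonds of antigens, had 52.0, 52.4 and 53.6 TPM in SNI and 24.6, 26.4 and 27.6 TPM in sham libraries. Its groups lay well apart (log2 fold change 0.98, SE 0.06, limma adjusted p = 6.4e-07), although the authors' higher list did not hold it. Ciita, the coactivator that switches on class II genes, averaged 2.69 TPM in SNI and 0.853 TPM in sham, or 132 and 39.3 reads, and was in the authors' higher list.

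Cd86 and Cd80 give T cells the second signal that antigen alone does not supply, and both were low. Cd86 averaged 4.67 TPM in SNI and 2.10 TPM in sham and was in the authors' higher list. Cd80 averaged 0.973 TPM in SNI and 0.613 TPM in sham and was absent from both lists.

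Among class I genes the classical heavy chains and their close relatives were on the higher side. RT1-A1, RT1-A2 and the 7 RT1-CE genes all had higher averages in SNI (log2 ratios 0.40 to 0.79), against 53.1% of all genes. The 7 of these 9 genes measured per library all rose, as did 32.0% of the 1596 genes tested. RT1-A2, a classical class I heavy chain, had 198.6, 200.2 and 192.9 TPM in SNI and 116.7, 118.5 and 114.4 TPM in sham libraries. The groups were apart (log2 fold change 0.75, SE 0.04, limma adjusted p = 5.8e-07). RT1-CE7, of the RT1-CE cluster, changed by about as much, with 46.7, 45.8 and 43.0 TPM in SNI and 25.0, 23.5 and 28.6 TPM in sham libraries (log2 fold change 0.79, SE 0.08, limma adjusted p = 1.7e-05). RT1-A1 stood at 106 ± 3.39 TPM in SNI and 67.3 ± 1.94 TPM in sham (SD, n = 3 each). RT1-CE2, RT1-CE4, RT1-CE5 and RT1-CE13 had log2 fold changes of 0.57, 0.47, 0.46 and 0.53. RT1-CE10 and RT1-CE3, outside the per-library table, averaged 72.3 and 44.8 TPM in SNI and 47.7 and 33.8 TPM in sham.

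These genes are close relatives, and values of single genes are uncertain because reads can be shared. In the GRCr8 annotation RT1-CE7 lies within the spans of RT1-CE4 and RT1-CE5. Summed over RT1-A and RT1-CE genes, the authors' averages came to 775 TPM in SNI and 510 TPM in sham, a ratio of 1.52, and over all 24 class I genes to 1019 TPM in SNI and 785 TPM in sham, a ratio of 1.30. The corresponding sums over class II genes were 614 TPM in SNI and 177 TPM in sham, a ratio of 3.47. Per library, the sum of the 3 class II genes over that of the 10 class I genes was 0.485, 0.492 and 0.492 in SNI and 0.142, 0.156 and 0.148 in sham.

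The other 15 class I genes, mostly nonclassical, showed no common direction. Averages were higher in SNI for 7, against 53.1% of all genes, and lower for 8, with a median log2 ratio of -0.01. RT1-T24-3 (Gene ID 414788) was the 1 gene called lower among the 18 members tested per library. It had 42.4, 40.6 and 41.4 TPM in SNI libraries, against 67.6, 69.2 and 63.1 TPM in sham libraries (log2 fold change -0.67, SE 0.05, limma adjusted p = 5.3e-06). The groups were apart, with sham the higher. Its neighbour RT1-T24-4 did not pass, with 71.6, 71.2 and 74.4 TPM in SNI and 70.6, 68.8 and 68.3 TPM in sham libraries (log2 fold change 0.06, 95% interval -0.04 to 0.17, limma adjusted p = 0.26). The ratio of RT1-T24-3 to RT1-T24-4 was 0.573 ± 0.018 in SNI and 0.963 ± 0.0414 in sham libraries (SD, n = 3 each). Spans of these 2 genes overlap in the GRCr8 annotation, so reads may have been assigned to either.

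RT1-S3, the counterpart of mouse H2-T23, had 60.6, 58.7 and 56.2 TPM in SNI and 63.5, 63.3 and 62.1 TPM in sham libraries. All SNI libraries were lower, yet the difference did not pass (log2 fold change -0.10, 95% interval -0.21 to 0.01, limma adjusted p = 0.091). The remainder have averages only. RT1-N2 averaged 12.6 TPM in SNI and 18.4 TPM in sham, and RT1-N3 20.3 TPM in SNI and 20.5 TPM in sham. RT1-M3-1, counterpart of the mouse molecule that presents formylated peptides, averaged 18.4 TPM in SNI and 19.6 TPM in sham. RT1-O1 and RT1-T24-1 averaged 5.35 and 7.48 TPM in SNI and 5.45 and 5.83 TPM in sham. RT1-M1-2, RT1-M6-2 and RT1-M10-1 were at 1.79, 1.75 and 0.270 TPM in SNI and 2.42, 1.11 and 0.227 TPM in sham. RT1-M1-4, RT1-M1-5 and RT1-M6-1 averaged under 10 reads in both groups (7.33, 3.69 and 3.53 reads in SNI against 2.33, 2.01 and 1.35 in sham), so no ratio is given for them.

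Of the class I partners, all 3 measured per library rose, as did 32.0% of the 1596 genes tested. Their log2 fold changes were smaller than those of the 3 class II genes. Tap1, a subunit of the peptide pump, had 28.5, 27.6 and 28.0 TPM in SNI and 17.4, 17.1 and 18.9 TPM in sham libraries (log2 fold change 0.63, SE 0.06, limma adjusted p = 1.6e-05). Its partner Tap2 averaged 15.1 TPM in SNI and 11.9 TPM in sham. Tapbp (tapasin), which holds class I at the pump, had 56.7, 60.4 and 53.4 TPM in SNI and 42.8, 44.0 and 47.2 TPM in sham libraries (log2 fold change 0.34, SE 0.06, limma adjusted p = 0.0012). B2m, the light chain, was the most abundant of the 43 genes, with 1231, 1210 and 1163 TPM in SNI and 1044, 1109 and 989 TPM in sham libraries. Its rise was small (log2 fold change 0.20, SE 0.05, limma adjusted p = 0.0066), and B2m over the class I sum was 1.45 ± 0.0367 in SNI and 1.67 ± 0.0833 in sham libraries (SD, n = 3 each).

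Genes that supply class I with peptides and help it fold had slightly higher averages. All 12 genes listed (chaperones, immunoproteasome subunits and their regulators) had higher averages in SNI, against 53.1% of all genes. Their median log2 ratio was 0.37, and 0 were in the authors' higher list. Of 4 tested, 3 rose, against 32.0% of the 1596 genes tested, and 1, Canx, did not pass (limma adjusted p = 0.18). Hspa5 and Calr, chaperones of the endoplasmic reticulum with many clients beside class I, rose to 335 ± 4.59 and 558 ± 10.6 TPM in SNI, against 214 ± 11.3 and 415 ± 13.2 TPM in sham. Nlrc5, the class I counterpart of Ciita, stood at 2.15 ± 0.206 TPM in SNI and 1.47 ± 0.112 TPM in sham (log2 fold change 0.35, limma adjusted p = 0.023).

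Of 13 genes of class II processing and transcription, 9 had higher averages in SNI, against 53.1% of all genes, with a median log2 ratio of 0.23. The single gene tested, the protease Ctsd, fell by 0.17 on the log2 scale (SE 0.04, limma adjusted p = 0.0031) to a mean of 716 TPM in SNI, against 805 TPM in sham, and the abundant Ctsb averaged 3122 and 3016 TPM in SNI and sham. Chosen after their values were seen, Ctss, the protease that trims the invariant chain, averaged 132 TPM in SNI and 66.6 TPM in sham, and Marchf1, a ligase that removes class II from the surface, 3.73 and 1.08 TPM in SNI and sham. Marchf1 was the 1 gene of this group in the authors' higher list. The subunits of the factor that binds the X box, Rfx5, Rfxap and Rfxank, averaged 10.7, 21.5 and 14.7 TPM in SNI and 9.46, 16.2 and 15.1 TPM in sham, named after their values were seen.

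Interferon gamma is the best known inducer of Ciita. All 9 genes of its signalling with averages were higher in SNI, against 53.1% of all genes (median log2 ratio 0.49). The 3 tested rose, as did 32.0% of the 1596 genes tested. Among them were the receptor chain Ifngr2 and the kinase Jak1, with log2 fold changes of 0.49 and 0.24 (limma adjusted p = 7.7e-05 and 0.0016). The authors' higher list, 3.63% of genes with averages, held 3, Jak2, Irf8 and Socs1, named after their values were seen. Ifng itself was not analysed here. Of 9 further costimulatory and checkpoint genes with averages all 9 were higher in SNI, against 53.1% of all genes, although 3 of them were under 1 TPM in both groups. The authors' higher list held 1 of them, Cd28, also named after its value was seen. The 1 tested, Cd274 (PD-L1, a T cell inhibitor), rose to 32.8 ± 1.63 TPM in SNI, against 19.2 ± 0.774 TPM in sham (log2 fold change 0.74, limma adjusted p = 6.6e-06).

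Markers of the cells that carry class II were set beside these genes, and their part in the result was not tested. All 12 macrophage markers had higher averages in SNI, against 53.1% of all genes, and 8 were in the authors' higher list (3.63% of genes with averages). Their median log2 ratio was 1.17, with summed averages of 858 TPM in SNI and 400 TPM in sham. The 2 markers of resident macrophages tested, Cd163 and Mrc1, did not pass (limma adjusted p = 0.73 and 0.073), and summed to 14.5 to 15.4 TPM in SNI and 13.4 to 13.9 TPM in sham libraries. Of 7 dendritic cell markers 6 were higher in SNI (53.1% of all genes were), 2 of them (Itgax and Batf3) in the authors' higher list, with a median of 0.10 and sums of 23.1 TPM in SNI and 22.0 TPM in sham. Itgax rose to 3.31 ± 0.0115 TPM in SNI, against 0.750 ± 0.145 TPM in sham (limma adjusted p = 1.1e-05). Batf3, named after its value was seen, averaged 3.85 TPM in SNI and 1.60 TPM in sham, and Flt3 averaged 10.5 TPM in SNI and 14.9 TPM in sham. B cell markers were near 0, at sums of 5.01 TPM in SNI and 5.03 TPM in sham over 7 genes, 5 of them under 1 TPM in both groups.

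Of 9 T and NK cell markers 8 were higher in SNI, against 53.1% of all genes (median log2 ratio 0.53). The authors' higher list, 3.63% of genes with averages, held 3 of them. Summed averages were 67.7 TPM in SNI and 33.7 TPM in sham. Cd4, named after its value was seen, made up 53.1 TPM of the sum in SNI and 25.2 TPM of that in sham. Which cells the Cd4 RNA came from was not tested. The highest of the other markers, Lck, averaged 3.53 TPM in SNI and 2.64 TPM in sham. The 2 markers tested, Cd3e and Cd8a, rose with log2 fold changes of 0.81 and 0.55 (limma adjusted p = 0.0020 and 0.0028). Glial and Schwann cell markers had a median of 0.08, and of 4 tested 1 rose, 1 fell and 2 did not pass. Sensory neuron markers had a median of -0.35, 2 of 8 being higher against 53.1% of all genes, and Scn10a, the 1 tested, fell (log2 fold change -0.37). Endothelial markers had a median of 0.01, and of the 2 tested Cldn5, a tight junction protein, fell to 49.9 ± 1.22 TPM in SNI, against 57.6 ± 4.56 TPM in sham (SD, n = 3 each, limma adjusted p = 0.021), while Vwf did not pass (limma adjusted p = 0.62). All 9 erythroid markers were higher in SNI, against 53.1% of all genes, and 8 were in the authors' higher list (3.63% of genes with averages). All 8 tested rose, as did 32.0% of the 1596 genes tested. The median log2 ratio of the 9 was 1.60, and per-library sums over the 8 were 1924 to 2018 TPM in SNI and 578 to 646 TPM in sham. Red cell transcripts moved with the groups beside the class II genes, and their part in the result was not tested.

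**Figure D4:**
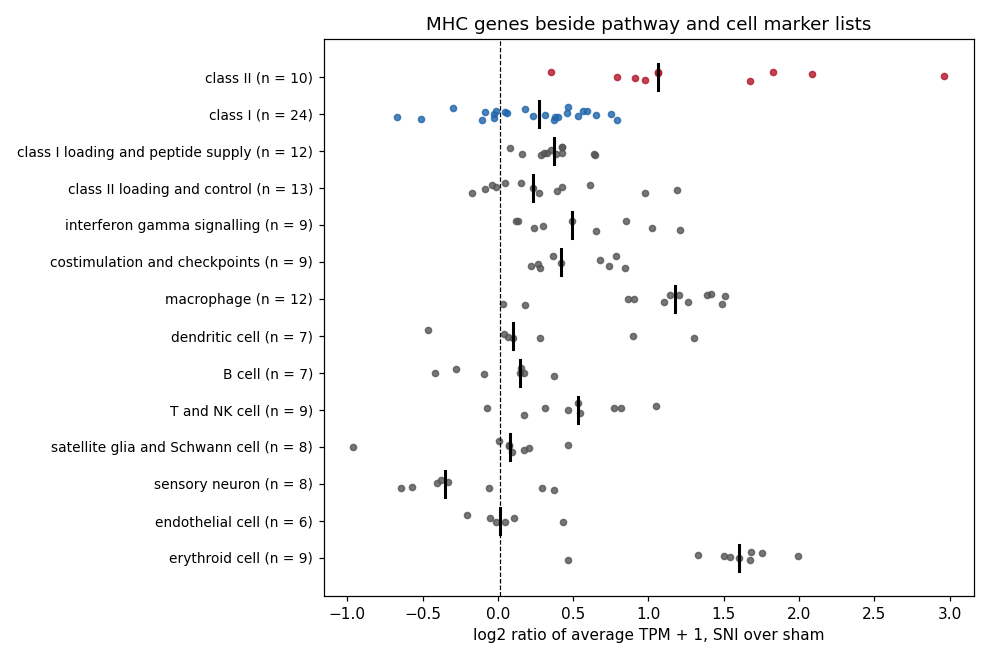
Log2 ratio of the authors' average TPM in SNI over sham, with 1 TPM added, for class II, class I and each pathway or marker list (points are genes, black bars medians, the dashed line the median of all genes). Medians are 1.06 for class II, 0.27 for class I, 1.17 for the macrophage list and 1.60 for the erythroid list. Single class II genes range from 0.35 to 2.96.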

How the data were processed

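RNA of 6 ganglion libraries (3 SNI, 3 sham) was measured by sequencing. TPM of each library were deposited by the authors, per the file headers, for 1637 genes, and average TPM and average read counts of each group for 18696 genes. As deposited, the averages are of estimated counts, which sum to 18.59 M in each group, and the depth of single libraries is unknown. Neither labels nor headers name the aligner, the counter, the genome build, the strandedness or the test used for the authors' gene lists, and the labels name 2 extraction methods and 2 library kits. Columns named control were taken as sham. Per-library means matched the deposited averages within 0.0051 TPM for all 1628 genes in both tables.

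Genes averaging 1 TPM or more were compared on log2(TPM + 1) with limma 3.58.1 under R 4.3.3, using group as the only term and an intensity trend. This scale understates changes of low genes. The step was tested on simulated data. Python 3.11.15, pandas 2.3.3 and Biopython 1.88 did the rest. Promoters came from RefSeq (GRCr8). The 43 genes and all lists were chosen with earlier results of these data known. All 43 are given. Of each list the rule was to name up to 4 called genes and the 2 most abundant, of which some are not reported here. Alternatives were pseudocount, filter, quantile normalization, no trend, a replicate block and leaving out each library.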

Additional observations from a re-analysis of the deposited data

How the results depend on the processing

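Over 12 alternatives, 215 of 216 values of the 18 genes tested kept their direction and their side of the threshold. The exception was RT1-S3, called lower after quantile normalization (log2 fold change -0.15, limma adjusted p = 0.025), so that 2 members were then called lower in place of 1. Members called higher numbered 15 under every alternative run. Over all genes tested, 510 were higher and 466 lower, against 402 higher and 608 lower after quantile normalization. Leaving out single libraries gave 442 to 522 higher and 381 to 477 lower genes. With the replicate number as a block, 498 genes were higher and 447 lower, and of the members 15 and 1. Same-numbered libraries had correlations of -0.09, -0.06 and 0.19 in their deviations from the group means, and differently numbered ones ranged from -0.29 to 0.29. Whether equal numbers mark a shared batch or a pairing is not given, and these correlations cannot settle it. The median log2 ratio of averages moved with the pseudocount and the filter. With 0.1 TPM added it was 1.57 for class II, 0.43 for class I and 0.65 for accessory genes, with members of at least 1 TPM 1.07, 0.35 and 0.75, and with members of at least 10 reads 1.07 for class II and 0.31 for class I. The order of class II above class I held in each. Averages carry no error, which limits what can be said of the 25 genes without values per library.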

Other observations

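RT1-S2 had almost equal average TPM in both groups (2.94 in SNI and 3.01 in sham) but 76.9 average reads in SNI and 125 in sham, so its reads per TPM in SNI were 0.631 times those in sham. Of 12911 genes with at least 50 average reads in both groups, only 2 had reads per TPM that differed by 1.5 times or more between the groups, RT1-S2 and Rasd1, both named after their values were seen. RT1-O1 lies within the span of RT1-S2 in the GRCr8 annotation. Whether its TPM or its reads give the better measure of RT1-S2 was not tested.

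Ifi30 was in neither of the authors' lists, although its deposited average TPM was 2.01 times as high in SNI as in sham. In the authors' deposited table, 830 genes had an average TPM in SNI of at least 2 times that in sham with at least 10 average reads in SNI, and 659 of these were in their higher list. The lowest ratio of average reads in that list was 2.02, and that of Ifi30 was 2.03.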
